A study of Mus musculus with 7 samples.

Results

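The colony-stimulating factors and their receptors were followed in mature adipocytes of mice that lacked FFA2 in adipocytes. The members were the rows of the deposited count table whose gene identifier carries the symbol Csf1, Il34, Csf2 or Csf3 (4 ligands) or Csf1r, Csf2ra, Csf2rb, Csf2rb2 or Csf3r (5 receptors). All 9 were found among 57010 gene identifiers, and 8 of them were among the 17039 genes with enough counts to be tested.

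The data were 7 RNA-seq libraries of male mice killed at 20 weeks of age on Teklad LM-485 chow. Of these, 3 came from FFA2 fl/fl mice, which carry floxed FFA2 alleles and no Cre, and 4 from Adipoq-F2-KO mice, which carry the same floxed alleles and Adiponectin-Cre, so that the adiponectin promoter drives the deletion in adipocytes. The animals were co-housed littermates, and the cells were freed from perigonadal fat with collagenase. In such a preparation, fewer cells of a type and less RNA per cell cannot be told apart.

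Csf1 (M-CSF) and Il34 are the ligands of the receptor tyrosine kinase Csf1r, through which macrophages survive, divide and differentiate. Csf2 (GM-CSF) binds the alpha chain Csf2ra, which signals with the common beta chain Csf2rb, and Csf3 (G-CSF) binds Csf3r and drives the production of neutrophils. Mice carry a close copy of the common beta chain, Csf2rb2, whose product serves the IL-3 receptor. In fat, adipocytes and stromal cells are sources of the ligands, whereas most of the receptors are found on myeloid cells.

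Values below are CPM, counts relative to the library total, scaled by edgeR's TMM factors (normalized CPM). A gene is said to have risen or fallen when the Benjamini-Hochberg adjusted p of edgeR's quasi-likelihood test over all tested genes was under 0.05. The libraries held 30478997 to 39992605 counts. The targeted gene Ffar2 lay at 32.0 to 37.5 normalized CPM in FFA2 fl/fl and 1.15 to 2.58 in Adipoq-F2-KO (log2 fold change −4.36 ± 0.22 (SE), adjusted p = 8.0e-06). Adipocyte transcripts were abundant in both genotypes, with Adipoq at 2419 to 3762 normalized CPM. Genes of the mitochondrial chromosome took 4.41% to 5.77% of the counts in FFA2 fl/fl and 6.61% to 10.3% in Adipoq-F2-KO.

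Csf1 RNA rose in Adipoq-F2-KO adipocyte preparations, whereas Il34, the other ligand of Csf1r, had lower values in all 4 knockout libraries and did not pass the threshold. Csf3 had the largest log2 fold change, 2.04, at an adjusted p of 0.0556. Each of the 5 receptors had a positive log2 fold change, from 0.30 to 0.99, and none passed the threshold in edgeR. Csf1 was the 1 member of 8 tested that rose (12.5%), against 1.02% of all tested genes that changed, 136 upward and 37 downward. The number of genes that changed, 173, was 178 without knockout library 1 and 166 without knockout library 4, but fell to 41 without control library 2, 20 without knockout library 3, 11 without knockout library 2, 5 without control library 3 and 1 without control library 1. With DESeq2, the tool the study used, 5 of the 8 members rose (Csf1, Csf3, Csf1r, Csf2rb and Csf2rb2). Of all 14342 genes that DESeq2 tested, 6.21% changed, 670 upward and 220 downward. In 7 of the 8 tested members the genotypes did not overlap, as in 17.6% of all tested genes. The median log2 fold change was 1.26 over the 3 tested ligands and 0.68 over the receptors, beside 0.0037 over all tested genes. The receptor median is the value of Csf3r, which had few reads and was 0.36 without knockout library 3.

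**Figure D1:**
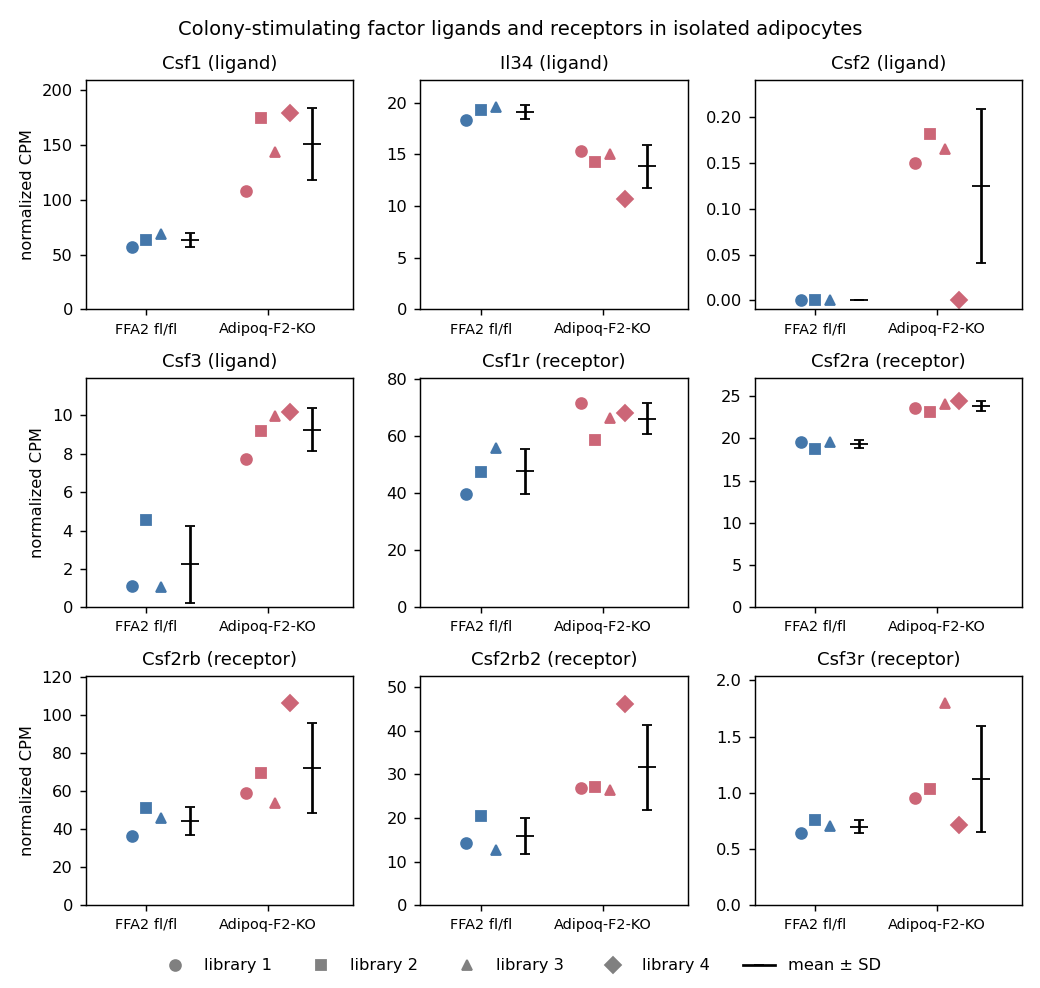
Normalized CPM (vertical axes, linear) of the 4 ligands and 5 receptors in each FFA2 fl/fl (blue, n = 3) and Adipoq-F2-KO (red, n = 4) library, with the mean ± SD of each genotype in black. The genotypes are apart in every panel but those of Csf2 and Csf3r, and Il34 alone is lower in Adipoq-F2-KO.

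**Figure D2:**
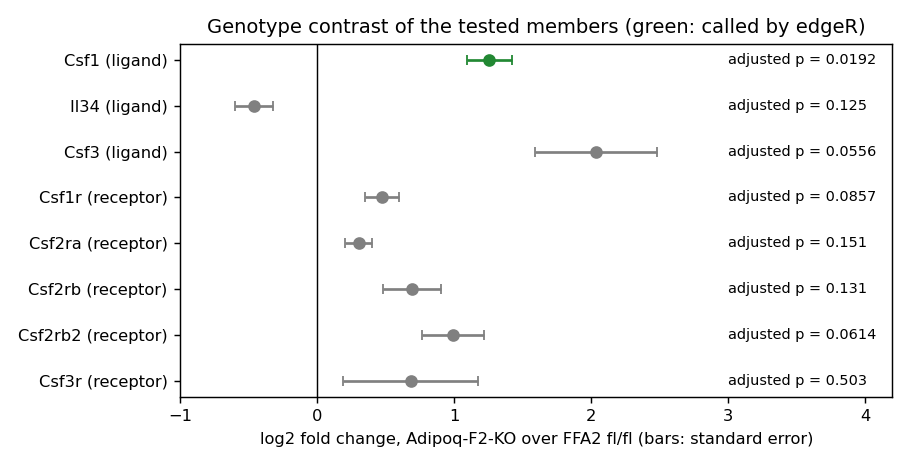
Log2 fold change of Adipoq-F2-KO over FFA2 fl/fl (horizontal axis) for the 8 tested members, with the standard error as a bar and edgeR's adjusted p beside each. Csf1, at 1.26, is the 1 member under the threshold, and Il34, at −0.46, the 1 member with a negative value.

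Csf1 (ENSMUSG00000014599; chromosome 3, 107648364 to 107667785, minus strand in the deposited table, whose coordinates are not those of GRCm38) encodes the growth factor that macrophages depend on. Its normalized CPM was 56.9, 63.7 and 69.2 in FFA2 fl/fl and 108, 175, 143 and 179 in Adipoq-F2-KO. All 4 knockout libraries lay above all 3 controls and were spread widely among themselves, with library 1 the lowest. The mean went from 63.2 ± 6.15 (SD, n = 3) to 151 ± 33.0 (SD, n = 4), a log2 fold change of 1.26 ± 0.16 (SE) with an adjusted p of 0.0192. Only 6 genes of the whole table had a smaller p than Csf1, which ranked 7. An exact two-sided permutation test of the same means gave p = 0.0571, where 3 against 4 libraries cannot give less than 0.0286. The rise passed the threshold in 4 of the 7 fits that left out 1 library, and was lost without control library 1 (adjusted p = 0.166), control library 3 (0.0567) or knockout library 2 (0.0527).

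The promoter of Csf1 is shown because Csf1 is the member that rose. The 250 bases before its RefSeq start (GRCm38.p6, chr3:107760470-107760719, minus strand) are printed 5′ to 3′, with a match to the NF-kB consensus in capitals:
Csf1 promoter: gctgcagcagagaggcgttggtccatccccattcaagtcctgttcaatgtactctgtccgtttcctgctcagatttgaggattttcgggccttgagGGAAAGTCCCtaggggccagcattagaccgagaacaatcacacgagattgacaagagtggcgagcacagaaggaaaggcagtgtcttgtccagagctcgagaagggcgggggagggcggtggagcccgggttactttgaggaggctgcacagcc
The match lay 154 to 145 bases before the start. Both strands were searched for the consensus of NF-kB and for the letters TGANTCA (AP-1), TTNNGNAA (C/EBP) and GAGGAA (PU.1), and over 32851 promoter windows of the same length 7.25%, 6.75%, 36.8% and 23.3% held them. The Csf1 window held none of the latter 3. Windows were at hand for 5 members. Csf3r had a match to NF-kB 129 to 120 bases before its start and 1 to PU.1, Csf2 had 1 to C/EBP, Csf2ra had 1 to C/EBP and 2 to PU.1, and Csf2rb2 had 1 to PU.1. A match of letters is a description of the window and says nothing of binding in these cells.

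Il34 (ENSMUSG00000031750; chromosome 8, 111468461 to 111532556, minus strand) binds the same receptor as Csf1 and is best known from keratinocytes and neurons, where it maintains Langerhans cells and microglia. Its normalized CPM was 18.3, 19.3 and 19.6 in FFA2 fl/fl and 15.3, 14.2, 15.0 and 10.7 in Adipoq-F2-KO. Every knockout library lay below every control, with library 4 the lowest. The log2 fold change was −0.46 ± 0.14 (SE) with an adjusted p of 0.125 in edgeR and 0.0772 in DESeq2, and the exact permutation test gave the smallest p it can, 0.0286. Exons of Il34 share 22 and 75 bases with the antisense genes Gm15894 and Gm15895, which held at most 24 counts in a library beside 316 to 766 for Il34.

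Since Csf1 and Il34 are ligands of one receptor, their levels were set side by side per kilobase of exon. In FFA2 fl/fl they were close, with 12.0 ± 1.17 normalized CPM per kilobase for Csf1 and 9.74 ± 0.342 for Il34 (SD, n = 3). In Adipoq-F2-KO they were 28.6 ± 6.25 and 7.06 ± 1.08 (SD, n = 4). Per kilobase, Csf1 was 1.15, 1.22 and 1.31 times Il34 in the controls and 2.62, 4.54, 3.53 and 6.21 times Il34 in the knockouts. Of the 2 ligands together, Csf1 made up 53.5% to 56.7% in FFA2 fl/fl and 72.4% to 86.1% in Adipoq-F2-KO, with no overlap. The summed level of both was 21.7 ± 1.50 per kilobase in the controls and 35.7 ± 5.53 in the knockouts, again without overlap. These shares are read from levels already given and were not tested on their own.

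**Figure D3:**
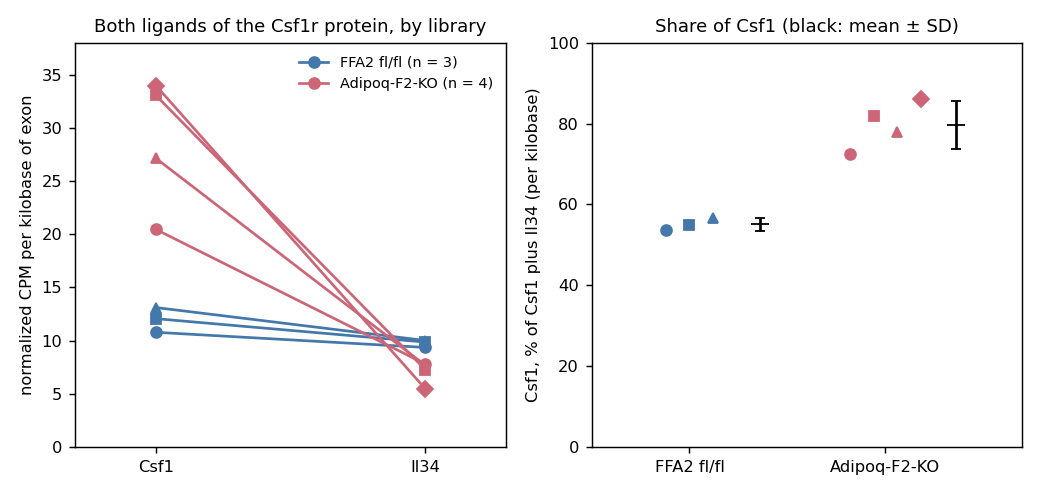
Left, normalized CPM per kilobase of exon of Csf1 and Il34 in each library, joined by a line for each library (blue, FFA2 fl/fl, n = 3; red, Adipoq-F2-KO, n = 4). Right, Csf1 as a percentage of Csf1 plus Il34 per kilobase, with the mean ± SD of each genotype in black. The lines of the controls are nearly flat and those of the knockouts steep, and the share of Csf1 lies between 53.5% and 56.7% in the controls and between 72.4% and 86.1% in the knockouts.

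Csf3 (ENSMUSG00000038067; chromosome 11, 98592089 to 98594455, plus strand), the factor of granulocyte production, had the largest log2 fold change of the members and the most uneven controls. Its normalized CPM was 1.09, 4.56 and 1.05 in FFA2 fl/fl and 7.73, 9.17, 9.96 and 10.2 in Adipoq-F2-KO. Control library 2 stood above the other 2 controls but below all knockout libraries. The log2 fold change was 2.04 ± 0.45 (SE), and its adjusted p was 0.0556 in edgeR, just above the threshold, and 1.1e-04 in DESeq2. Without control library 2 the log2 fold change was 3.10 and the adjusted p 0.00123. The exact permutation test over all libraries gave p = 0.0286.

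Csf2 (ENSMUSG00000018916; chromosome 11, 54138097 to 54140493, minus strand) was close to undetected. It had 0 counts in all 3 controls and 6, 6, 6 and 0 counts in the knockouts. Exons of Csf2 share 96 bases with the antisense gene Gm12223, which held 0 counts in the controls and 1, 3, 0 and 2 in the knockouts. Low counts were mostly even, as when each mate counts once, so 6 counts are about 3 fragments, the number that 0 counts in a library still allow (0.150 to 0.197 CPM). A difference in Csf2 was not detectable at this depth, and no fold change is given.

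Csf1r (ENSMUSG00000024621; chromosome 18, 61233670 to 61265221, plus strand), the receptor of Csf1 and Il34, is a marker of monocytes and macrophages. Its normalized CPM was 39.9, 47.4 and 55.8 in FFA2 fl/fl and 71.6, 58.8, 66.3 and 68.3 in Adipoq-F2-KO. The highest control and the lowest knockout library were near each other and did not cross. The log2 fold change was 0.47 ± 0.12 (SE), with an adjusted p of 0.0857 in edgeR and 0.0125 in DESeq2. The exons of Csf1r share 873 bases with those of Hmgxb3 on the other strand, and the strand setting of the counting is not stated. Hmgxb3 held 944 to 995 counts in the controls and 807 to 993 in the knockouts, beside 1496 to 1904 and 1935 to 2853 for Csf1r.

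Csf2ra (ENSMUSG00000059326; chromosome 19, 61212395 to 61216867, minus strand), the GM-CSF binding chain, varied least between libraries of one genotype. Its normalized CPM was 19.6, 18.7 and 19.6 in FFA2 fl/fl and 23.6, 23.1, 24.1 and 24.4 in Adipoq-F2-KO. The genotypes did not overlap, and the step between them was small. The log2 fold change was 0.30 ± 0.10 (SE), with an adjusted p of 0.151 in edgeR and 0.122 in DESeq2, and the exact permutation test gave p = 0.0286.

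Csf2rb (ENSMUSG00000071713; chromosome 15, 78209952 to 78238047, plus strand) encodes the beta chain shared by the receptors of GM-CSF, IL-3 and IL-5, and Csf2rb2 (ENSMUSG00000071714; chromosome 15, 78166707 to 78189921, minus strand) lies beside it. Their coding sequences, 2691 and 2637 bases long, were identical at 95.2% of 2631 aligned bases in GENCODE M21 on GRCm38. The longest identical run, 242 bases, is shown with its flanks because read pairs inside it cannot be assigned to either gene. Both stretches are coding bases 2059 to 2348, printed 5′ to 3′ on the coding strand, with the 5 differing bases in capitals. They lie at chr15:78348553-78348842 (plus strand) for Csf2rb and chr15:78284606-78284895 (minus strand) for Csf2rb2:
Csf2rb: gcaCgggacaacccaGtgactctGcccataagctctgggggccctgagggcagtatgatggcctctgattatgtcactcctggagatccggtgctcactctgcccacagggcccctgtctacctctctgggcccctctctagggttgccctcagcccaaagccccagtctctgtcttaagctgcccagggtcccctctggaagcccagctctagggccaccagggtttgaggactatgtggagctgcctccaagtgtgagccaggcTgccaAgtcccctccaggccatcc
Csf2rb2: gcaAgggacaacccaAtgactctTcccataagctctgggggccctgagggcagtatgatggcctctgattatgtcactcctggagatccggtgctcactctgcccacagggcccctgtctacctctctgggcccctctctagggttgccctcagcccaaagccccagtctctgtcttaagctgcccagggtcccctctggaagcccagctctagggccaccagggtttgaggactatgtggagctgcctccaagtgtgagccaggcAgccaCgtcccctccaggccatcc
Of all 150-base windows of the longest transcript, 3.47% for Csf2rb and 3.59% for Csf2rb2 occurred unchanged in the other. The split of reads between the pair is therefore uncertain to that extent for fragments of 150 bases. It was not measured on the counted reads themselves.

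The normalized CPM of Csf2rb was 36.5, 51.1 and 46.0 in FFA2 fl/fl and 58.9, 69.5, 53.8 and 106 in Adipoq-F2-KO. All knockout libraries lay above all controls, and knockout library 4 stood far above the rest. The log2 fold change was 0.69 ± 0.21 (SE), with an adjusted p of 0.131 in edgeR and 0.0155 in DESeq2, and was 0.45 without knockout library 4. Csf2rb2 gave 14.3, 20.5 and 12.6 in the controls and 26.9, 27.0, 26.4 and 46.1 in the knockouts, again with library 4 on its own and the other three within a narrow band above the controls. Its log2 fold change was 0.99 ± 0.23 (SE), with an adjusted p of 0.0614 in edgeR and 7.1e-04 in DESeq2. Per kilobase, Csf2rb2 made up 35.1% ± 4.77 (SD, n = 3) of the summed level of both in FFA2 fl/fl and 40.4% ± 2.34 (SD, n = 4) in Adipoq-F2-KO, and these shares overlapped. Both beta chains together stood at 1.41 ± 0.293 (SD, n = 3) and 1.99 ± 0.597 (SD, n = 4) times the level of Csf2ra per kilobase, with overlap. These shares and ratios depend on the summed exon lengths of the count table, 7277 bases for Csf2rb and 4740 for Csf2rb2. For Csf2rb that length exceeds its longest GENCODE M21 transcript, so its level per kilobase may be understated.

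Csf3r (ENSMUSG00000028859; chromosome 4, 125918343 to 125938233, plus strand), the receptor of Csf3 and a marker of neutrophils, had few reads. Its counts were 24, 30 and 24 in FFA2 fl/fl and 38, 34, 65 and 21 in Adipoq-F2-KO. In normalized CPM these were 0.641, 0.756 and 0.703 in the controls and 0.953, 1.03, 1.80 and 0.712 in the knockouts. The genotypes overlapped, since knockout library 4 lay among the controls, while library 3 stood above all others. The log2 fold change was 0.68 ± 0.49 (SE), with an adjusted p of 0.503, and was 0.36 without knockout library 3 (adjusted p = 0.751). With this error, an increase of the size seen in Csf2rb could not be told from none.

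Per kilobase of exon, the order of the members in FFA2 fl/fl was Csf1 at 12.0, Il34 at 9.74, Csf1r at 8.26, Csf2ra at 6.72, Csf2rb at 6.12, Csf2rb2 at 3.34, Csf3 at 1.58, Csf3r at 0.194 and Csf2 at 0 normalized CPM per kilobase. Neighbours whose libraries overlapped were Il34 and Csf1r, Csf2ra and Csf2rb, and Csf2rb2 and Csf3. In Adipoq-F2-KO the order was Csf1 at 28.6, Csf1r at 11.5, Csf2rb at 9.91, Csf2ra at 8.29, Il34 at 7.06, Csf2rb2 at 6.67, Csf3 at 6.55, Csf3r at 0.311 and Csf2 at 0.156. Here Csf1 and Csf1r were apart, and so were Csf2ra and Il34, and Csf3 and Csf3r, whereas all other neighbours overlapped. Il34 moved from the second place to the fifth. The order depends on the summed exon lengths of the count table, and the place of Csf2rb is uncertain for the reason given above.

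To compare ligands with receptors, the log2 normalized CPM of a receptor was subtracted from that of its ligand in each library. Csf1 minus Csf1r went from 0.41 ± 0.10 (SD, n = 3) to 1.17 ± 0.43 (SD, n = 4), a shift of 0.75 without overlap. Il34 minus Csf1r went from −1.31 ± 0.19 to −2.27 ± 0.28, a shift of −0.96 in the other direction, also without overlap. Csf3 minus Csf3r went from 1.26 ± 1.08 to 3.05 ± 0.54, with overlap through control library 2. In exact two-sided permutation tests these 3 shifts had p = 0.0571, 0.0286 and 0.0571, and each had an adjusted p of 0.0762 over the 4 pairs compared, so none passed 0.05. The fourth pair, Csf2 minus Csf2ra, rests on a ligand at the detection limit (p = 0.143, also after adjustment, exact permutation test). Per kilobase, Csf1 plus Il34 stood at 2.66 ± 0.259 times Csf1r in FFA2 fl/fl and 3.15 ± 0.698 times in Adipoq-F2-KO, which overlapped, while Csf1 alone stood at 1.46 ± 0.101 and 2.53 ± 0.691 times and Il34 alone at 1.20 ± 0.158 and 0.619 ± 0.110 times, neither with overlap.

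Markers of other cells also differed between the genotypes. Over all tested genes, 50.4% had positive log2 fold changes and 136 of 17039 rose in edgeR. In DESeq2, 670 of 14342 genes rose. The counts for each list below are to be read beside these shares. Of 24 macrophage markers, 23 were tested, 20 had positive values and 2 rose, Cd68 (log2 fold change 0.72) and Lyz2 (0.69), with a median of 0.66, and 9 rose in DESeq2. The monocyte receptor Ccr2 had the highest value, 1.38, followed by Folr2 at 0.90, and the lowest were Mertk, the most abundant of the list beside Lyz2, at −0.42 and Lyve1 at −0.38. Cd68 passed in 1 of the 7 fits without 1 library (without control library 2) and Lyz2 in 3 (without control library 2 or knockout library 1 or 4), with adjusted p up to 0.227 and 0.201 without control library 1. The summed normalized CPM of the list was 523 to 599 in FFA2 fl/fl and 730 to 772 in Adipoq-F2-KO. Its largest terms went in opposite directions, Lyz2 from a mean of 90.8 to 147 and Mertk from 93.2 to 69.8. As a percentage of the summed list, Csf1r was 8.57 ± 1.37 (SD, n = 3) and 8.92 ± 0.705 (SD, n = 4), Csf2ra 3.48 ± 0.320 and 3.21 ± 0.0533, and Csf2rb 7.96 ± 0.847 and 9.66 ± 2.89, and each of these 3 overlapped between genotypes. Csf2rb2, at 2.82 ± 0.570 and 4.23 ± 1.16, did not overlap, and neither did the ligands Csf1 (11.4 ± 1.06 and 20.3 ± 4.21), Il34 (3.43 ± 0.184 and 1.87 ± 0.324) and Csf3 (0.387 ± 0.324 and 1.25 ± 0.133). This comparison was chosen after the values were seen, and the part of macrophage RNA in the receptor values was not tested further. Normalized CPM itself did not overlap between genotypes in 17.6% of all tested genes.

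Of 17 neutrophil markers, 6 were tested, 3 with positive and 3 with negative values, and none changed in edgeR while 1 rose in DESeq2. Mmp9 had 0.79, Il1r2 0.07, Elane −0.69 and Mcemp1 −1.07. Mcemp1 and Il1r2 had few reads, with means of 0.36 and 0.69 normalized CPM in the controls and 0.17 and 0.73 in the knockouts. Ly6g and Cd177, which define neutrophils, had 0 counts in all libraries, and S100a8 lay at 1.66 to 2.75 normalized CPM in the controls and 1.06 to 2.66 in the knockouts. The sum of the list, 3453 to 4791 and 3517 to 4467, is nearly all Hp, an adipocyte product as well. Without Hp it was 11.3 to 12.4 and 14.1 to 16.7, led by Mmp9. The mean of that sum went from 11.8 to 15.3 and the mean of Mmp9 from 6.09 to 10.5. The mean of Mmp9 thus differed by more than that of the sum, and the other markers together had no higher mean in the knockouts. Mmp9 itself did not pass the threshold in edgeR (adjusted p = 0.0647). Endothelial markers were higher in sum, 1238 to 1626 in FFA2 fl/fl and 1692 to 2628 in Adipoq-F2-KO, with 11 of 11 values positive (median 0.46) and 0 past the threshold in edgeR, while 4 rose in DESeq2. Their values ran from 0.33 for Esam and 0.36 for Eng to 0.59 for Cdh5 and 0.63 for Tek, with 0.51 for Pecam1. The highest endothelial sum and the lowest adipocyte sum, 52496 beside 59942 to 69692 in the other libraries, were those of knockout library 4, which also had the highest Csf1, Csf2rb and Csf2rb2 and the lowest Il34. All 12 adipocyte markers had negative values (median −0.24), from −0.01 for Fabp4 and −0.04 for Retn to −0.40 for Cidec and Lipe, with −0.11 for Car3, the most abundant. Of these, 0 passed the threshold in edgeR and 2 fell in DESeq2. Among other cells, dendritic markers had a median of 0.43, erythroid 0.59, fibroblast progenitor 0.27, mast cell and basophil 0.08, lymphoid (T, NK and ILC2) −0.07, mesothelial −0.15 and B cell −0.32. Transcripts of testis and epididymis summed to 110 in knockout library 2 and 30.3 in library 3, beside 3.83 at most elsewhere. The part of any of these in the CSF values was not tested.

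Of the signals known to induce CSF ligands, 2 rose. Over all tested genes, 136 of 17039 rose in edgeR and 670 of 14342 in DESeq2. In a list of inducers and their receptors, 17 genes were tested, 14 had positive values with a median log2 fold change of 0.82, 7 rose in DESeq2, and the 2 that rose in edgeR were Tnf, from 14.4 to 45.0 normalized CPM (log2 fold change 1.65, adjusted p = 0.0192), and Il6, from 24.2 to 67.2 (1.47, adjusted p = 0.0332). Tnf lost the threshold without control library 1 (adjusted p = 0.166) or 3 (0.0788), and Il6 without control library 1 (0.196) or 3 (0.135) or knockout library 2 (0.0570) or 3 (0.0546). Il1a, the alarmin form of IL-1, had a value of 1.55 and Il17rc, a chain of the IL-17 receptor, the lowest, −0.41, while Il17a had 0 counts throughout. The most abundant members, the AP-1 subunits Fos and Jun, had −0.09 and −0.33. None of 9 factors that speed or slow the decay of such ligand mRNAs changed, with Zfp36 (tristetraprolin) at 0.04, Zfp36l1 at 0.33, the RNase gene Zc3h12a at 0.42, Khsrp at −0.16 and Elavl1 at −0.12.

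Downstream of the receptors, 40 signaling genes were tested and 31 had positive values (median 0.29). None changed in edgeR and 7 rose in DESeq2. Over all tested genes, 50.4% had positive values, and 670 of 14342 rose in DESeq2. The kinase Jak2, used by the beta chain, had the largest value, 0.97, and Src the smallest, −0.34, followed by Dok1 at −0.31. The most abundant, Socs3, a brake on G-CSF signaling, and the survival gene Mcl1, had 0.09 and 0.19. Of 16 myeloid transcription factors, 12 had positive values (median 0.36). In DESeq2 6 rose and 1 fell, and in edgeR 1 rose, Runx1, from 11.2 to 22.5 normalized CPM (1.01, adjusted p = 0.0332). That call held in 2 of the 7 fits without 1 library, those without knockout library 1 or 4, and in the other fits the adjusted p was 0.0557 (without knockout library 2), 0.0618 (without knockout library 3), 0.0602 (without control library 2), 0.135 (without control library 3) and 0.196 (without control library 1). Tfec, at means of 0.24 (controls) and 0.49 (knockouts) normalized CPM, had 1.02 and the abundant Klf4 0.14. Cebpa, which adipocytes express as well, had −0.31, and the lipid-sensing receptor gene Nr1h3 had −0.36. Of the genes that handle the ligands, Adam17, the protease that sheds cell-surface CSF1, had 0.47 and its partners Rhbdf2 and Rhbdf1 0.66 and −0.16. Sdc1, a syndecan that binds IL-34, had 0.50, and none of the 4 tested genes passed the threshold in edgeR while 2 rose in DESeq2. Il3ra, the alpha chain that pairs with the beta chains for IL-3, had 0.25, and Il3 itself had 0 counts.

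**Figure D4:**
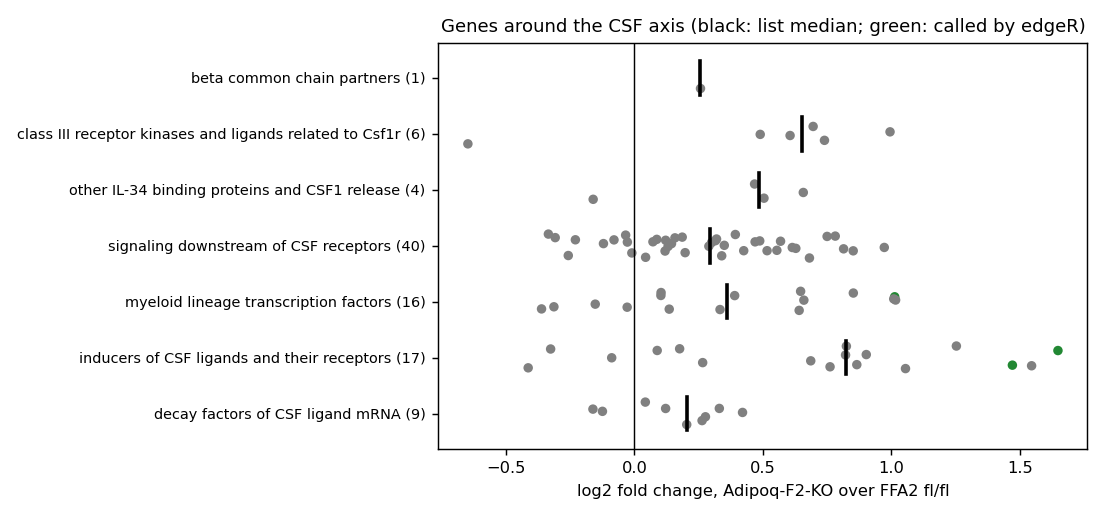
Log2 fold change of Adipoq-F2-KO over FFA2 fl/fl (horizontal axis) for each tested gene of the lists around the CSF ligands and receptors, with the number tested in parentheses and the list median as a black bar. Genes past edgeR's threshold are green. The inducers have the highest median, 0.82, and hold 2 of the 3 green points, Tnf and Il6, the third being Runx1.

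The genes whose pattern over the 7 libraries was most like that of each member are given as a description, by Pearson's r of log2 normalized CPM, among tested genes with a mean of at least 1. The libraries fall into 2 genotypes and share their depth and composition, so high values are common. For Csf1 they were Bach1 (r = 0.996), Adam10 (0.992) and Birc2 (0.991), and 90 genes reached 0.95. For Il34 they were Crat (0.997), Lipe (0.996) and Acsf3 (0.992), with 177 genes at 0.95 or more. Csf3 was nearest to Gas5 (0.988), H2afz (0.988) and Ube2f (0.987). Csf1r was nearest to Msl1 (0.985), Gm6807 (0.969) and Gm6568 (0.969), and Csf2ra to Tsc22d2 (0.988), Pgm2 (0.985) and Foxc1 (0.978). Csf2rb was nearest to Nop56 (0.992), Rgs5 (0.989) and Prkx (0.989), with 151 genes at 0.95 or more. Csf2rb2 was nearest to mt-Rnr1 (0.997), Mpzl1 (0.996) and Tnfrsf1b (0.992), and Csf3r to S100a10 (0.979), Ier5 (0.969) and Teddm2 (0.964).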

How the data were processed

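Mature adipocyte RNA of 4 Adipoq-F2-KO mice and 3 FFA2 fl/fl littermates was sequenced, and groups follow the sample labels. Trimmomatic (trimming), STAR (alignment) and featureCounts (counting) were run by the authors, who deposited raw counts per gene. Versions, strand and overlap options are not given in the sources used here, and the labels name GRCm38 and mm10 while the coordinates of 8 of the 9 members lie elsewhere in GRCm38. From 85.5% to 88.8% of counts between 1 and 49 were even.

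Counts were filtered (filterByExpr), scaled (TMM, 0.968 to 1.02) and tested with genotype as the only term in edgeR 4.0.16 (R 4.3.3). DESeq2 1.42.0, limma 3.58.1 voom, other scalings, filters and left-out libraries were alternatives. The edgeR step, tested on simulated data with 200 of 17039 genes changed by a log2 fold change of 1, recovered 59.5% with 3.49% false calls. The simulation gave each gene the spread typical of its level and no composition shared between genes. These rates therefore need not hold for the libraries studied here. All 7 libraries were kept as separate, since any pair within a genotype differed by far more than counting error (chi-square over its degrees of freedom of at least 41.5). P-values of edgeR set the difference between genotypes against the spread between libraries, which the labels number within each genotype. Those of the permutation tests set it against all other ways of dividing the libraries between the genotypes.

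The members, lists and tests were chosen with earlier results of these data known. Named beside the members are Ffar2, the 3 genes most like each member and, of the pathway, macrophage, neutrophil, endothelial and adipocyte lists, the called genes, the 2 most abundant and the highest and lowest tested; other marker lists are given by medians or sums alone. One gene that this rule names is not reported here. Adipoq, S100a8, Ly6g, Cd177, Il3 and Il17a lie outside that rule and were chosen after their values were seen. The detection limit given for Csf2 covers counting error only. Each SD gives the spread between libraries of a genotype, and edgeR's SE takes that spread into account. RefSeq promoter windows (GRCm38.p6) and GENCODE M21 transcripts gave the sequences.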

Additional observations from a re-analysis of the deposited data

Results flagged for a closer look

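Csf2rb2 in the Adipoq-F2-KO libraries was set apart by 1 library. Library 4 had 46.1 normalized CPM and the other three 26.4 to 27.0, so that the gap to the nearest made up 0.967 of the whole range, above Dixon's 95% critical value for 4 samples. Chance alone sets apart about 1 group in 20, and 9 members were looked at.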

How the results depend on the processing

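Every tested member kept its direction under every alternative in which it was tested. Tools differed in how many genes and members passed. DESeq2 called 890 of 14342 genes and 5 members, and limma voom 208 of 17039 genes and 2 members. A filter of at least 1 count gave 1403 of 28515 genes and 5 members, and halved counts 249 of 15301 genes and 2 members. The fit reported above gave 173 of 17039 genes and 1 member. Csf3 passed with a log2 fold change of 2.05 in DESeq2, 2.33 in voom, 2.03 with the looser filter and 2.02 with halved counts. In DESeq2 and with the looser filter, Csf1r passed at 0.48 and 0.47, Csf2rb at 0.70 and 0.69, and Csf2rb2 at 1.00 and 0.99. The cause was not tested.

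Without 1 library at a time, genes called ranged from 1 (without control library 1) to 178 (without knockout library 1), and members called from 0 to 2. Log2 fold changes ranged from 1.17 to 1.39 for Csf1, 1.71 to 3.10 for Csf3, −0.51 to −0.36 for Il34, 0.36 to 0.61 for Csf1r, 0.28 to 0.33 for Csf2ra, 0.45 to 0.81 for Csf2rb, 0.76 to 1.23 for Csf2rb2 and 0.36 (without knockout library 3) to 0.85 for Csf3r. Ligand minus receptor shifts ranged from 0.62 to 0.94 for Csf1, −1.06 to −0.83 for Il34 and 1.43 to 2.41 for Csf3.

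The replicate numbers did not pair the libraries (correlations of same-numbered deviations 0.013, 0.0085 and −0.036). With the replicate number as a block and knockout library 4 left out, 223 of 16643 genes and 3 members passed. These members were Csf1, Csf3 at 2.29 and Csf2rb2 at 0.79. The same libraries without the block gave 166 of 16643 genes, and Csf1 alone of the members passed. There, edgeR's adjusted p was 0.0780 for Csf3 and 0.0596 for Csf2rb2.

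Csf3r was not tested under the filter of mean CPM of at least 1. Depth limits Csf2.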

Other observations

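The relatives of Csf1r, the class III receptor kinases and their ligands, had positive log2 fold changes in 5 of 6 tested genes, with a median of 0.65. Of these, 0 passed edgeR's threshold while 2 rose in DESeq2. Over all tested genes, 50.4% had positive values, and 670 of 14342 rose in DESeq2. Kit gave 10.4, 11.9 and 10.1 normalized CPM in FFA2 fl/fl and 15.5, 14.7, 15.8 and 26.2 in Adipoq-F2-KO. Its ligand Kitl gave 42.4, 49.8 and 48.5 in the controls and 66.9, 65.3, 68.3 and 103 in the knockouts. Neither gene overlapped between genotypes, as in 17.6% of all tested genes, and neither passed the threshold (log2 fold changes 0.74 and 0.70, edgeR adjusted p of 0.101 and 0.0616). Knockout library 4 was the highest in both, as in Csf2rb and Csf2rb2. Flt3l, the ligand of the kinase Flt3, had the 1 negative value of the list, −0.65. Flt3 itself, at means of 0.20 (controls) and 0.41 (knockouts) normalized CPM, had the highest, 0.99, and the abundant Pdgfrb 0.49.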
